A study of Mus musculus with 15 samples.

Results

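The mitochondrially encoded transcripts of mouse brain were followed across 15 RNA sequencing libraries. They were chosen as every entry of the deposited expression table whose mouse gene symbol begins with mt-, which gave 37 of 65964 entries. These were 13 protein-coding genes, 2 ribosomal RNA genes and 22 transfer RNA genes. Values are transcript abundances in TPM, a level scaled to transcript length and to the total of the library.

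The libraries came from C57BL/6 mice and formed 5 groups of 3. APOE_H and APOE_L carried the treatment label kainic acid (KA) and APOE. KA_H and KA_L carried the label KA alone, and CTRL_L was labelled untreated. All 15 libraries, the untreated ones included, were also labelled as a KA model of temporal lobe epilepsy (TLE). KA activates kainate-type glutamate receptors and is used to provoke seizures in rodents. The labels define neither the letters H and L nor what was done to APOE, and they give no age. No untreated H group was among the libraries. Separate animals are not stated for the 3 libraries of a group, and the p-values below therefore speak only to the spread among these samples, which could be technical.

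Mitochondria keep a small circular genome of their own. Both of its strands are read as long precursor RNAs, and the transfer RNA sequences that lie between most of the other genes mark where these precursors are cut. The messenger RNAs encode core subunits of the respiratory chain and of ATP synthase. The remaining subunits are encoded in the nucleus, so each complex with a mitochondrially encoded subunit is assembled from products of both genomes. The ribosomal and transfer RNAs serve the separate translation machinery inside the organelle. Neurons and glia both depend on this machinery for ATP. Stretches of mitochondrial DNA have also been copied into the nuclear chromosomes, where they are annotated as pseudogenes, and short reads cannot always be assigned to one or the other.

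Apoe, the gene named in the group labels, had 144, 6.49 and 12.4 TPM in the APOE_H libraries and 0.69, 0.71 and 0 TPM in the APOE_L libraries. It ran from 8767 to 16636 TPM in KA_H, from 1970 to 3262 TPM in KA_L and from 161 to 889 TPM in CTRL_L. The labelled tissue is whole brain, yet the 8 neuron markers summed to at most 66.5 TPM in any library, and Rbfox3, Slc17a7 and Gad1 were each listed at 0 in every library of at least 1 group. The 10 microglia markers summed to between 7139 and 33443 TPM, and all 10 reached 1 TPM in each library. In the APOE and in the KA groups, the 8 choroid plexus markers separated the H from the L libraries. They summed to between 38239 and 58709 TPM in APOE_H and between 126 and 297 TPM in APOE_L, and to between 33077 and 41064 TPM in KA_H and between 57.6 and 1281 TPM in KA_L. In CTRL_L they were uneven, from 139 TPM in replicate 1 to 38940 TPM in the highest library, within the range of both H groups. The number of entries at 1 TPM or more was 12801 to 15452 in APOE_H and 10161 to 11237 in APOE_L. It was 13192 to 13635 in KA_H, 9931 to 12085 in KA_L and 10706 to 11182 in CTRL_L. Depth is not recoverable from TPM, and how many reads lie behind a value is unknown.

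Of the 37 mitochondrial entries, 14 were above 0 in all 15 libraries and 23 were listed at 0 in all 15. The 14 all passed the filter of 1 TPM in at least 3 libraries. They were both ribosomal RNAs and all protein-coding genes but mt-Nd4l. The 23 were mt-Nd4l and all 22 transfer RNA genes, which deliver amino acids to the mitochondrial ribosome. The transfer RNA genes are 59 to 75 bases long. Of the 924 table entries under 80 bases, 3 were above 0 in any library. The shortest and the longest transfer RNA genes, both listed at 0 throughout, are shown to give the scale of these entries; the sequences here and below are GENCODE M21 transcripts, printed 5′ to 3′.
mt-Ts2: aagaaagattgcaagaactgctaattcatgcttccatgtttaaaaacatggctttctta
mt-Tl1: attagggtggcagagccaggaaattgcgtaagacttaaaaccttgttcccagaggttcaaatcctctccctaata

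The listed 0 of mt-Nd4l, a membrane subunit of complex I, stood beside an identical nuclear sequence that was far from 0. The pseudogene Gm10222 on chromosome 1 matches the first 294 of the 297 bases of mt-Nd4l without a difference. Gm10222 had 883, 1611 and 1355 TPM in APOE_H libraries and 1439, 982 and 1461 TPM in APOE_L libraries. It had 1920, 2918 and 1279.8 TPM in KA_H libraries, 546, 654 and 418 TPM in KA_L libraries and 507, 2283 and 2364 TPM in CTRL_L libraries. A value for mt-Nd4l alone therefore cannot be given. Its transcript is printed with the bases beyond the end of the copy in capitals.
mt-Nd4l: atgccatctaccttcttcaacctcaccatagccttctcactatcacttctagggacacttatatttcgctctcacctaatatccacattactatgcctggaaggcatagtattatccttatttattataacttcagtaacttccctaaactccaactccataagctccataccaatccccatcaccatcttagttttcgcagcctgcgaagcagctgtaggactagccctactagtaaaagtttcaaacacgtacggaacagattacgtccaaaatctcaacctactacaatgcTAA

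Near-identical nuclear copies were found for 9 of the 37 members. They were sought by aligning each member against all annotated mouse transcripts. At least 95% identity over at least 100 bases was required, and 11 were found. The 22 transfer RNA genes, 59 to 75 bases long, are shorter than this, so the search could not find copies of them. For cytochrome c oxidase subunit genes the copies took up a large part of the signal. mt-Co3 itself had 572 to 2353 TPM, against 7661 to 29491 TPM for Gm28437 on chromosome 1, which is identical to mt-Co3 over 783 of its 784 bases. Gm29216 on chromosome 1 repeats the last 483 bases of mt-Co1 with 1 difference and had 2682 to 11809 TPM. Gm13340 on chromosome 2 matches all 1545 bases of mt-Co1 with 37 differences and had 388 to 1497 TPM. The stretches below show bases that separate mt-Co1 from each copy, with the differing bases in capitals. The second pair is the 61-base stretch with the most differences from Gm13340, so it is not typical of the 1545 bases. Positions are counted from 1 at the 5′ end of mt-Co1. The difference in the first pair is A1066T, and those in the second pair are A462G, A468G, T501C and C519T.
mt-Co1: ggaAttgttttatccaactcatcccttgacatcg
Gm29216: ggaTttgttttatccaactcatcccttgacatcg
mt-Co1: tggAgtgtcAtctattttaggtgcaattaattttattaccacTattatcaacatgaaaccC
Gm13340: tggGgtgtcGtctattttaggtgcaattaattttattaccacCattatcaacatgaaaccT

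Complex I genes had the same problem. Gm28438 on chromosome 1 covers 345 of the 348 bases of mt-Nd3 with the single difference T3C and had 495 to 4496 TPM. The starts of both are printed, with the differing base in capitals.
mt-Nd3: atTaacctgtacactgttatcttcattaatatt
Gm28438: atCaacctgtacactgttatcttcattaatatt
Gm28439 on chromosome 1 is identical to the first 876 of the 1378 bases of mt-Nd4 and had 188 to 1675 TPM. Other copies took little or nothing. Gm10925 on chromosome 1 is identical to 678 of the 681 bases of mt-Atp6 but was listed at 0 in all 15 libraries, as was Gm13341, a copy of mt-Co2. Gm13339, which matches part of mt-Nd2, and Gm4076, which matches part of mt-Nd5, did not exceed 0.24 and 0.06 TPM.

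How the signal was divided between a gene and its identical copy differed between the groups. Gm28661 on chromosome 1 matches mt-Co2 over 681 bases and lacks the last 3, printed in capitals in the end of mt-Co2 that follows.
mt-Co2: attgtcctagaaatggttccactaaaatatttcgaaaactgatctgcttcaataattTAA
Gm28661 took 9.84%, 8.20% and 13.3% of its sum with mt-Co2 in APOE_H libraries and 2.91%, 0.101% and 0.328% in APOE_L libraries. It took 14.6%, 16.9% and 13.8% in KA_H libraries, 0.711%, 0.522% and 0.0439% in KA_L libraries and 23.3%, 11.1% and 10.5% in CTRL_L libraries. Every H library and every control library was thus above every KA_L and APOE_L library. The share of Gm28439 in its sum with mt-Nd4 ran the other way, at 14.1% to 15.03% in APOE_H and 27.8% to 38.6% in APOE_L, and at 14.7% to 16.4% in KA_H and 28.7% to 44.4% in KA_L. The share of Gm28437 in its sum with mt-Co3 was 90.9% to 94.96% over all 15 libraries. Fold changes below are those of the mitochondrial entries as deposited, and they are also given for the length-weighted sum of a member and its copies where that changes a call or a direction.

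**Figure D1:**
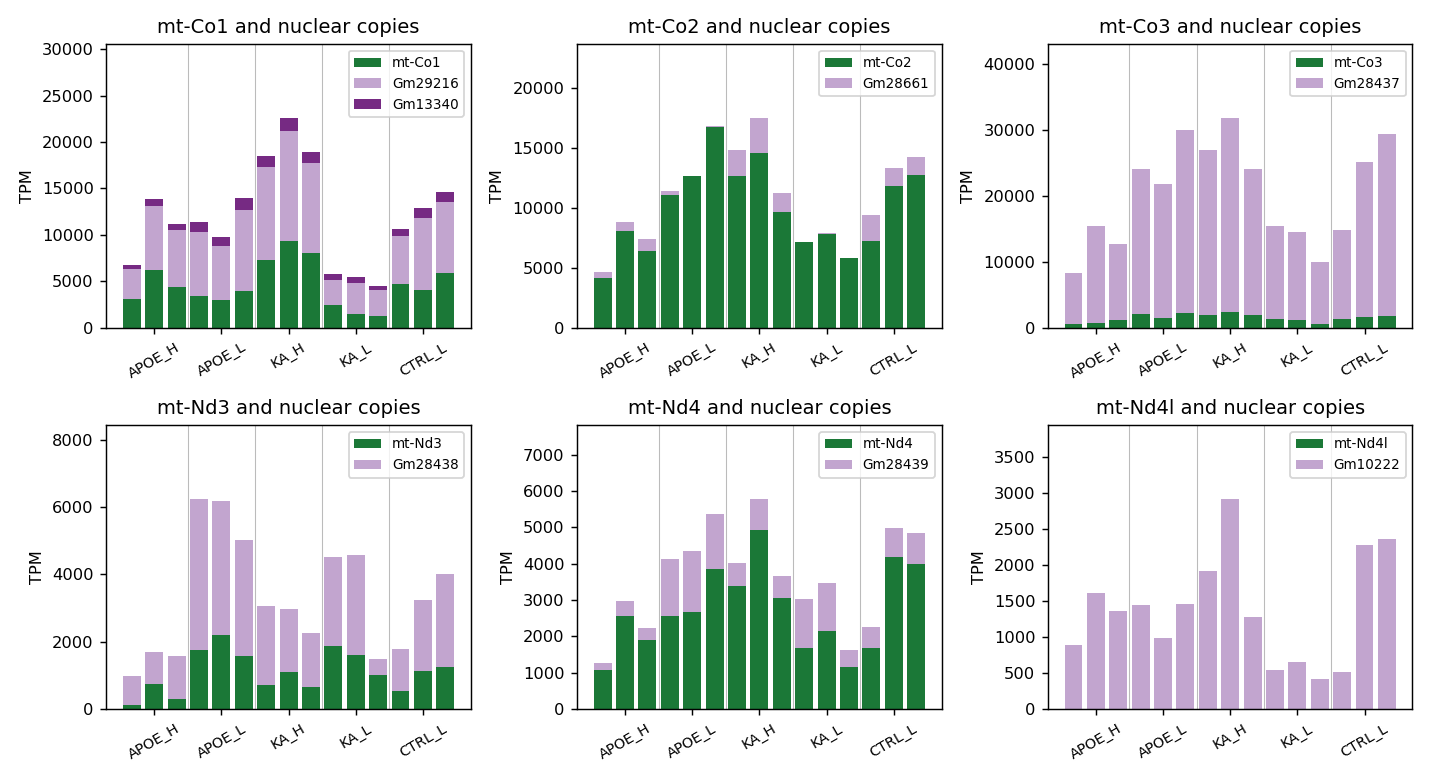
TPM of 6 mitochondrial genes (green) stacked with their nuclear copies (purple), 1 bar per library in replicate order within each group. Gm28437 makes up most of the mt-Co3 stack, mt-Nd4l itself is at 0 in every bar, and Gm28661 is hardly visible on mt-Co2 in APOE_L and KA_L.

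The 13 protein-coding genes together made up 2.69% to 9.99% of all TPM in a library. Their sum was 2.69%, 5.29% and 4.07% of the table in APOE_H libraries and 7.67%, 7.39% and 9.88% in APOE_L libraries. It was 8.45%, 9.99% and 7.19% in KA_H libraries and 4.74%, 5.02% and 3.39% in KA_L libraries, and 4.66%, 7.81% and 8.48% in CTRL_L libraries. APOE_L and KA_H were the high groups and APOE_H and KA_L the low ones, and neither high group overlapped either low group. CTRL_L spanned both ranges, because its replicate 1 was as low as the KA_L libraries. With the copies and the ribosomal RNAs added, the means were 6.54% ± 2.05 in APOE_H, 12.8% ± 1.95 in APOE_L, 13.8% ± 2.19 in KA_H, 6.71% ± 1.33 in KA_L and 11.3% ± 3.30 in CTRL_L (SD, n = 3 each). The order of the groups was the same. The 2 ribosomal RNAs summed to 0.453% ± 0.129 in APOE_H, 0.597% ± 0.0857 in APOE_L, 0.783% ± 0.133 in KA_H, 0.388% ± 0.0453 in KA_L and 0.763% ± 0.236 in CTRL_L (SD, n = 3 each). These are shares of bulk RNA, in which fewer cells of a type and less RNA per cell cannot be told apart. The share taken by assembled loci without a gene name also differed between the groups. It was 2.20% to 3.17% in APOE_H, 10.6% to 11.3% in APOE_L and 4.51% to 6.78% in KA_H. In KA_L it was 11.4% to 12.1% and in CTRL_L 6.73% to 8.94%. Rescaling each library without these loci and the members left the number of positive member values in every comparison within 1 of those given below. The nuclear copies, at 1.37% to 5.14% of the table in a library, stayed in that rescaling total.

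**Figure D2:**
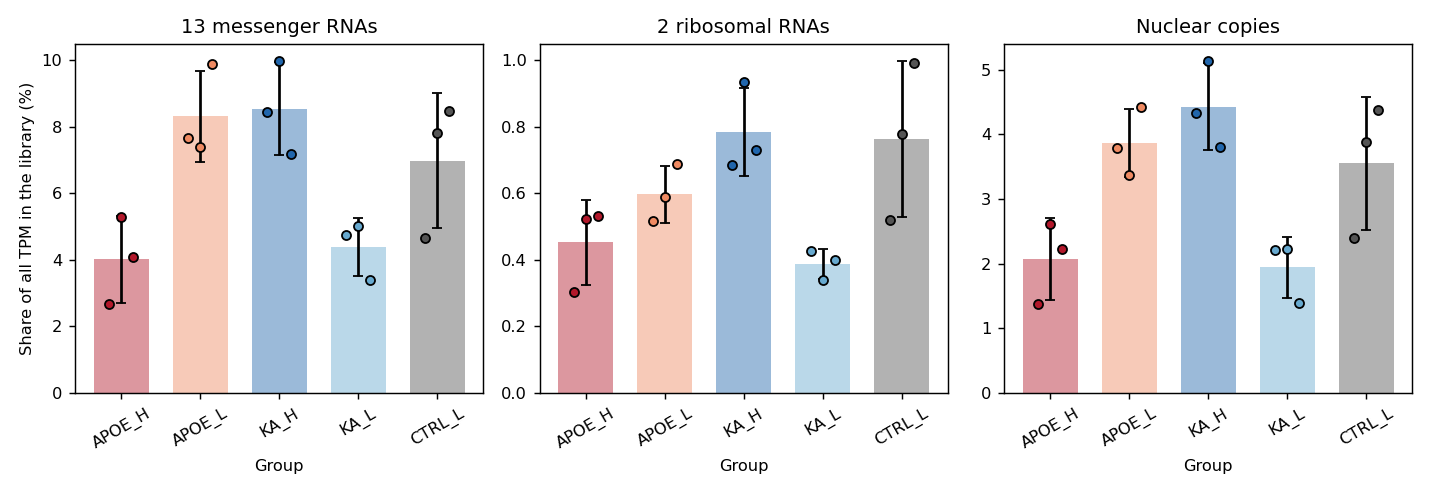
Share of all TPM in a library taken by the 13 protein-coding genes, the 2 ribosomal RNAs and the nuclear copies. Points are libraries, bars are group means and error bars are SD of 3; APOE_L and KA_H are high and APOE_H and KA_L low for the protein-coding genes and for the copies.

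mt-Atp6 (ENSMUSG00000064357) encodes a proton-channel subunit of ATP synthase. Among the members as deposited, it had the highest mean over the 15 libraries, at 18853 TPM. It was followed by mt-Co2 at 9893 TPM, mt-Cytb at 7603 TPM, mt-Atp8 at 6715 TPM and mt-Nd1 at 6626 TPM. The lowest means of the 14 were those of mt-Nd6 at 1092 TPM and mt-Nd5 at 946 TPM. This ranking leaves out the nuclear copies. With Gm28437 added, mt-Co3 averaged 12118 TPM in APOE_H, 25226 in APOE_L, 27547 in KA_H, 13274.5 in KA_L and 23022 in CTRL_L. The means of mt-Atp6 were 10144.5, 27488, 22856, 13021 and 20755 TPM in the same order, above those of mt-Co3 in APOE_L alone. The difference between mt-Atp8 and mt-Nd1 is small beside the spread of either gene, which ran from 2788 to 11009 TPM and from 2487 to 11037 TPM. The highest library was 3.59 to 7.48 times the lowest for 13 of the 14 members. The exception was mt-Nd3, at 17.7 times. With its copy Gm28438 added the range of mt-Nd3 was narrower, from 965 TPM in an APOE_H library to 6211 TPM in an APOE_L library. The mt-Atp8 and mt-Atp6 reading frames overlap by 43 bases, shown in capitals at the end of mt-Atp8, and reads from those bases cannot be assigned to one of the pair.
mt-Atp8: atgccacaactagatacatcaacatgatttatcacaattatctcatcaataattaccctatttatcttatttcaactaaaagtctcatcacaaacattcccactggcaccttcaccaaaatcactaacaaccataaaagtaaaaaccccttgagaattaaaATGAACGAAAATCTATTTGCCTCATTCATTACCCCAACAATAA

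The ATP synthase genes followed the sum of all messenger RNAs. mt-Atp6 had 6907, 13522 and 10005 TPM in APOE_H libraries, against 25535, 23726 and 33203 TPM in APOE_L libraries. It had 23852, 26130.3 and 18586 TPM in KA_H libraries, 14302, 14951 and 9809 TPM in KA_L libraries, and 12547, 23615 and 26102 TPM in CTRL_L libraries. The APOE_H libraries were all below every APOE_L and KA_H library, and the KA_L libraries were likewise below APOE_L and KA_H. mt-Atp8, an accessory membrane subunit, averaged 4162 ± 1348 TPM in APOE_H, 9227 ± 1578 TPM in APOE_L, 8306 ± 1022 TPM in KA_H, 4495 ± 1094 TPM in KA_L and 7385 ± 2233 TPM in CTRL_L (SD, n = 3 each).

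Of the cytochrome c oxidase (complex IV) genes, mt-Co1 (ENSMUSG00000064351) had a group order of its own. It encodes the subunit that holds the site where oxygen is reduced. mt-Co1 had 3096, 6199 and 4405 TPM in APOE_H libraries and 3462, 2982 and 3998 TPM in APOE_L libraries, which overlap. It had 7241, 9329 and 8003 TPM in KA_H libraries, 2498, 1508 and 1247 TPM in KA_L libraries, and 4659, 4059.8 and 5838 TPM in CTRL_L libraries. KA_H was above, and KA_L below, every library of the other 4 groups. mt-Co2, which encodes the subunit that takes electrons from cytochrome c, averaged 6218 ± 1952 TPM in APOE_H, 13476 ± 2939 TPM in APOE_L, 12285 ± 2470 TPM in KA_H, 6901 ± 1027 TPM in KA_L and 10588 ± 2940 TPM in CTRL_L (SD, n = 3 each). mt-Co3, another core subunit, averaged 826 ± 280 TPM in APOE_H, 1872 ± 385 TPM in APOE_L, 2067 ± 248 TPM in KA_H, 1025 ± 365 TPM in KA_L and 1609 ± 241 TPM in CTRL_L (SD, n = 3 each).

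mt-Cytb (ENSMUSG00000064370) encodes cytochrome b, the only mitochondrially encoded subunit of complex III. It had 3395, 6243 and 4819 TPM in APOE_H libraries and 7658, 7987 and 9266 TPM in APOE_L libraries. It had 11097, 14401 and 10263 TPM in KA_H libraries, 5661, 6008 and 3069 TPM in KA_L libraries, and 5905, 7784 and 10492 TPM in CTRL_L libraries. All KA_H libraries were above those of APOE_H, APOE_L and KA_L, and the APOE_H and KA_L libraries overlapped.

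The complex I genes encode membrane subunits of NADH dehydrogenase, the entry point of electrons from NADH. mt-Nd1 had 2487, 5268 and 3761 TPM in APOE_H libraries, 8082, 6321 and 9488 TPM in APOE_L libraries and 8989.7, 11037 and 7639.5 TPM in KA_H libraries. It had 4365, 4903 and 3926 TPM in KA_L libraries and 4921, 9029.7 and 9179 TPM in CTRL_L libraries. mt-Nd1 thus showed the 2 high and 2 low groups of the summed level. mt-Nd3 had 124, 735 and 306 TPM in APOE_H libraries, 1754, 2195 and 1572 TPM in APOE_L libraries and 719, 1094 and 649 TPM in KA_H libraries. It had 1874, 1593 and 1001 TPM in KA_L libraries and 545, 1128 and 1243 TPM in CTRL_L libraries. The lowest mt-Nd3 means were thus those of the H groups, and APOE_H lay below APOE_L without overlap. mt-Nd5 had 619, 1123 and 1070.3 TPM in APOE_H libraries, 757, 772 and 901 TPM in APOE_L libraries and 1474, 1938 and 1282 TPM in KA_H libraries. It had 487, 562 and 497 TPM in KA_L libraries and 617, 1109 and 978 TPM in CTRL_L libraries. KA_H was the highest and KA_L the lowest group for mt-Nd5, without overlap with the other groups. mt-Nd2 averaged 1740.3 ± 548 TPM in APOE_H, 4311 ± 467 TPM in APOE_L, 3026 ± 675 TPM in KA_H, 2537 ± 477 TPM in KA_L and 2799.7 ± 861 TPM in CTRL_L (SD, n = 3 each). mt-Nd4 ran from 1067 to 4934 TPM over all libraries. mt-Nd6, the only protein-coding gene on the other strand, ran from 479 to 1752 TPM; the strand setting is not given in the sources used here, so reads from opposite strands at this gene cannot be told apart.

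The ribosomal RNAs form the small (mt-Rnr1) and large (mt-Rnr2) subunits of the mitochondrial ribosome. mt-Rnr2 had 1571, 2596 and 2437 TPM in APOE_H libraries and 3362, 3534 and 3885 TPM in APOE_L libraries. It had 4297, 5637 and 4494 TPM in KA_H libraries, 2711, 2122 and 2303 TPM in KA_L libraries, and 2957, 4091 and 5304 TPM in CTRL_L libraries. KA_H again lay above APOE_H, APOE_L and KA_L without overlap. mt-Rnr1 averaged 2324 ± 748 TPM in APOE_H, 2375 ± 593 TPM in APOE_L, 3024 ± 607 TPM in KA_H, 1499.7 ± 217 TPM in KA_L and 3509.99 ± 1188 TPM in CTRL_L (SD, n = 3 each), so that its APOE_H and APOE_L means were nearly the same.

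**Figure D3:**
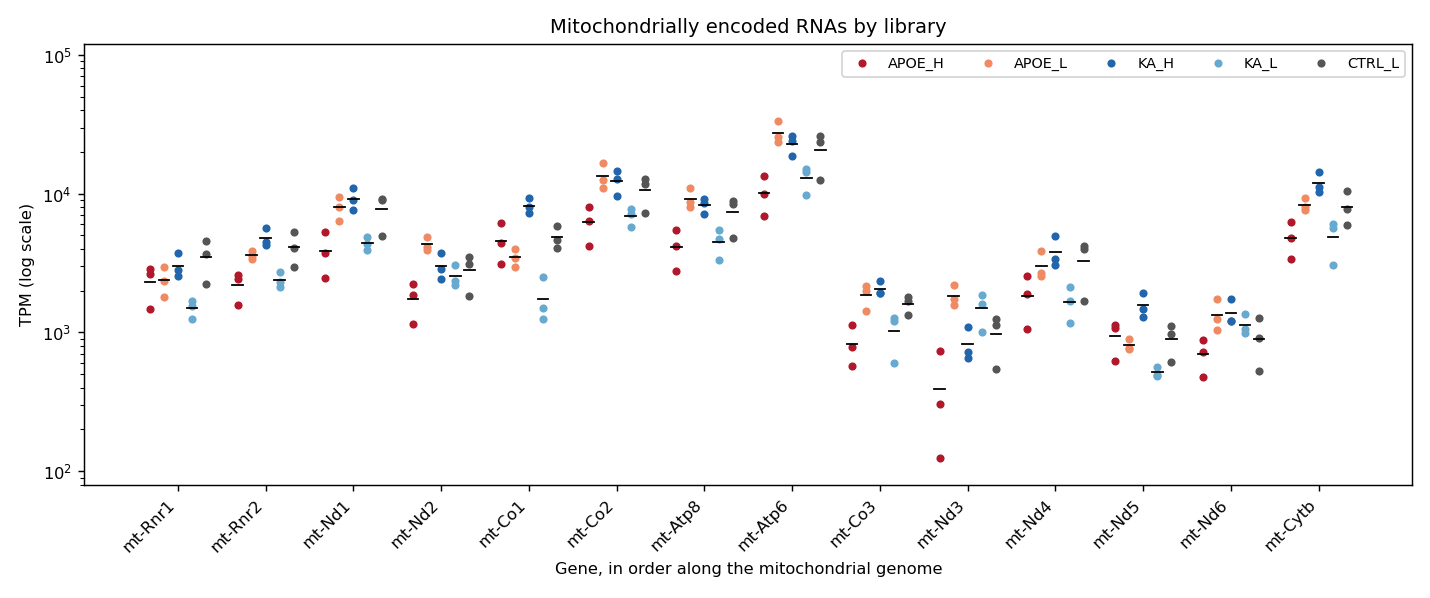
TPM (log scale) of the 14 members above 0, in their order along the mitochondrial genome. Points are libraries and short lines group means, all of the entries as deposited, without nuclear copies. Among these entries mt-Atp6 is the highest, mt-Nd3 has the widest range and mt-Co1 shows KA_H highest and KA_L lowest.

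Fold changes were tested with limma on log2(TPM + 1) over 17505 entries, with Benjamini-Hochberg adjustment and a threshold of 0.05 on the adjusted p. Of the calls of single members below, 16 were lost when entries were tested without a filter on low values and 13 when the compared groups were fitted alone. Between H and L in the APOE condition, mitochondrial transcripts were mostly lower in APOE_H. In APOE_H against APOE_L, 7 of the 14 tested members fell and none rose, where 1.45% of all tested entries fell and 4.7% rose. mt-Nd3 fell by 2.58 on the log2 scale (SE 0.51, adjusted p = 0.00855). mt-Atp6 fell by 1.48 (SE 0.27, adjusted p = 0.00588) and its neighbour mt-Atp8 by 1.19 (SE 0.27, adjusted p = 0.0156). Among complex I genes, mt-Nd2 fell by 1.36 (SE 0.29, adjusted p = 0.0116) and mt-Nd1 by 1.10 (SE 0.27, adjusted p = 0.0251). Of the complex IV genes, mt-Co2 fell by 1.15 (SE 0.25, adjusted p = 0.0140) and mt-Co3 by 1.21 (SE 0.33, adjusted p = 0.0384). The median over the 14 members was -1.03, while that over all tested entries was 0.54; after quantile normalization these were -0.88 and -0.06. mt-Co1 and mt-Nd5 had positive values, 0.34 (adjusted p = 0.490) and 0.17 (adjusted p = 0.812), and mt-Co1 came to -0.04 with its copies added, while quantile normalization left 3 positive values and upper-quartile scaling 1. Without overlap between the groups, 11 of the 14 members were lower in APOE_H, against 9.65% of all tested entries. Of 8 marker lists for brain and blood cell types, the summed levels of 3 did not overlap between these groups. The choroid plexus markers had 38239 to 58709 TPM in APOE_H and 126 to 297 TPM in APOE_L, the microglia markers 21898 to 31473 TPM in APOE_H and 13089 to 14450 TPM in APOE_L, and the astrocyte markers 75.2 to 92.3 TPM in APOE_H and 96.4 to 163 TPM in APOE_L. Their part in the result was not tested. Without APOE_H replicate 1, the lowest of its group for all 14 members, 2 members passed the test, and without APOE_L replicate 3 there were 3.

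The same H to L comparison under KA alone had the opposite sign for most members. In KA_H against KA_L, 4 of the 14 members rose and none fell, where 1.23% of all tested entries rose and 0.251% fell. mt-Co1 rose by 2.28 on the log2 scale (SE 0.27, adjusted p = 0.000937). mt-Nd5 rose by 1.58 (SE 0.33, adjusted p = 0.0272), mt-Cytb by 1.32 (SE 0.27, adjusted p = 0.0245) and mt-Rnr2 by 1.01 (SE 0.24, adjusted p = 0.0463). The median over the members was 1.01, against 0.11 over all tested entries. Of the 14 values, 13 were positive, and 11 were under quantile normalization, while mt-Nd3 had -0.85 (adjusted p = 0.475). Without overlap, 11 members were higher in KA_H, against 10.5% of all tested entries. When the copies were added, mt-Co2 (log2 fold change 1.05, adjusted p = 0.0373) and mt-Co3 (1.07, adjusted p = 0.0442) also passed, so that 6 members did. mt-Co1 passed under each setting tried but one, the fit of these 2 groups alone (adjusted p = 0.0906). The other 3 calls were less stable: without KA_H replicate 1, 2 or 3, or without KA_L replicate 3, only mt-Co1 passed, and without KA_L replicate 1 the count was 2. Of the 8 marker lists, 6 did not overlap between these groups, 4 of them higher in KA_H. The choroid plexus markers had 33077 to 41064 TPM in KA_H and 57.6 to 1281 TPM in KA_L, and the microglia markers 16091 to 20129 TPM in KA_H and 7139 to 13438 TPM in KA_L. The red blood cell markers had 384 to 4092 TPM in KA_H and 80.95 to 156 TPM in KA_L, and the neutrophil markers 326 to 1284 TPM in KA_H, with all 4 listed at 0 in every KA_L library. The astrocyte markers were lower in KA_H, at 34.8 to 86.3 TPM in KA_H and 138 to 160 TPM in KA_L. The sums of the neuron markers were lower in KA_H but near 0 in both groups, at 0.06 to 0.08 TPM in KA_H and 0.16 to 0.97 TPM in KA_L. No neuron marker reached 1 TPM in all 3 libraries of either group, and 5 of the 8 were listed at 0 in every KA_H library. The part of these lists in the result was not tested.

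The difference between these differences was tested as an interaction of condition and letter. It was negative for all 14 members, from -2.30 to -1.06 on the log2 scale, with a median of -1.95, against 0.38 over all tested entries. mt-Atp6 was the 1 member that passed (-2.30, SE 0.38, adjusted p = 0.0425), among 8 entries that passed in the whole table, 0.0457% of those tested. Another 4 members, mt-Nd1, mt-Co2, mt-Atp8 and mt-Cytb, had an adjusted p of 0.0558. The sign held for all 14 members under each scaling tried, but the number that passed did not: it was 0 after quantile normalization, 9 after upper-quartile scaling and 5 after rescaling to Ensembl entries outside the members. With the replicate number as a block no member passed (adjusted p of mt-Atp6 0.0562), and without a filter on low values none did. With copies added, 4 members passed, namely mt-Atp6 together with mt-Co1 (-2.04), mt-Co2 (-2.05) and mt-Co3 (-2.16), each with an adjusted p of 0.0351. Leaving out a single library gave 0 members in 10 of 12 cases, 5 without APOE_H replicate 2 and 3 without KA_L replicate 2, with the adjusted p of mt-Atp6 between 0.0353 and 0.125.

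Averaged over KA and APOE, H against L left 3 members past the threshold. mt-Co1 rose by 1.31 (SE 0.19, adjusted p = 0.000655) and mt-Nd5 by 0.87 (SE 0.23, adjusted p = 0.0252), where 7.72% of all tested entries rose. mt-Nd3 fell by 1.71 (SE 0.36, adjusted p = 0.00729), where 2.46% fell. None of the 3 passed in both conditions taken singly. Under KA alone mt-Co1 had 2.28, against 0.34 in the APOE condition (adjusted p = 0.490, limma), or -0.04 there with its copies added. mt-Nd5 had 1.58 under KA and 0.17 in the APOE condition (adjusted p = 0.812). mt-Nd3 had -0.85 under KA (adjusted p = 0.475) and -2.58 in the APOE condition. The median over the 14 was -0.04, against 0.32 over all tested entries. mt-Co1 and mt-Nd3 passed under all 21 alternative settings. mt-Nd5 passed under 13 of them, and its adjusted p exceeded the threshold without APOE_H replicate 2 (0.0594) or 3 (0.0660), without APOE_L replicate 1 (0.0546) or 2 (0.0527) and without KA_H replicate 2 (0.0589). It also exceeded the threshold without a filter on low values (0.0799), after quantile normalization (0.0549) and after rescaling to Ensembl entries outside the members (0.0606).

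**Figure D4:**
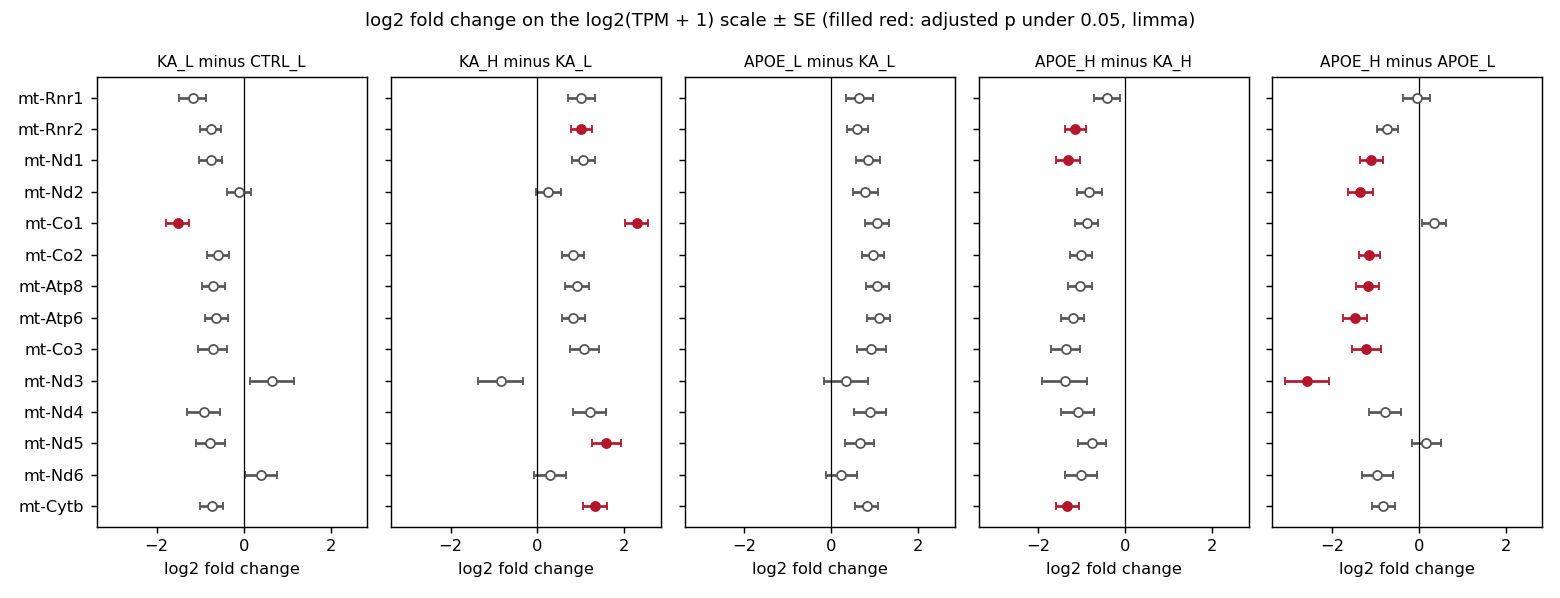
Log2 fold change on the log2(TPM + 1) scale of the 14 members in 5 comparisons, with bars of 1 SE and filled points for an adjusted p under 0.05. Most members are above 0 in KA_H minus KA_L and below 0 in APOE_H minus APOE_L; mt-Nd3 is below 0 in both.

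The APOE condition was set against KA alone within each letter. In APOE_H against KA_H, 3 of the 14 members fell and none rose, where 0.171% of all tested entries fell and 0.36% rose. mt-Cytb fell by 1.33 on the log2 scale (SE 0.27, adjusted p = 0.0301), mt-Nd1 by 1.31 (SE 0.27, adjusted p = 0.0371) and the large ribosomal RNA mt-Rnr2 by 1.15 (SE 0.24, adjusted p = 0.0399). All 14 values were negative, under each scaling tried, with a median of -1.07 against 0.25 over all tested entries. Without overlap, 12 members were lower in APOE_H, against 6.51% of all tested entries; mt-Rnr1 and mt-Nd3 overlapped. With copies added, mt-Co2 (-1.09, adjusted p = 0.0457) and mt-Co3 (-1.22, adjusted p = 0.0322) passed as well. No member passed without APOE_H replicate 1 or 3, without KA_H replicate 1 or 2, or after quantile normalization, and 5 passed without APOE_H replicate 2. The choroid plexus markers were high in both groups and overlapped, at 38239 to 58709 TPM in APOE_H and 33077 to 41064 TPM in KA_H. Of the 8 marker lists, 2 did not overlap. The microglia markers had 21898 to 31473 TPM in APOE_H and 16091 to 20129 TPM in KA_H, and the oligodendrocyte markers 63.0 to 106 TPM in APOE_H and 17.1 to 25.6 TPM in KA_H. The neutrophil markers overlapped, with a median of 0 TPM in APOE_H and 982 TPM in KA_H. The part of these lists in the result was not tested.

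Within L the values pointed the other way, but no member passed. In APOE_L against KA_L all 14 values were positive, 13 after quantile normalization, with a median of 0.83 against -0.04 over all tested entries. mt-Atp6 had the smallest p, with a log2 fold change of 1.09 (SE 0.27, adjusted p = 0.203, limma). At an unadjusted p under 0.05 there were 10 members, where 7.84% of all tested entries were under it. This comparison made 8 calls in the whole table, 0.0457% of the entries tested. Without overlap, 12 members were higher in APOE_L, against 3.57% of all tested entries, with mt-Nd3 and mt-Nd6 as the exceptions. Both groups had low choroid plexus markers, at 126 to 297 TPM in APOE_L and 57.6 to 1281 TPM in KA_L. The oligodendrocyte markers were the 1 list of the 8 that did not overlap, at 71.5 to 120 TPM in APOE_L and 14.98 to 70.8 TPM in KA_L, and their part was not tested.

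Against the untreated libraries, KA_L had 1 member lower and none higher, where 0.4% of all tested entries were lower and 0.171% higher. mt-Co1 fell by 1.52 on the log2 scale (SE 0.27, adjusted p = 0.0193). The members' median was -0.72, against 0 over all tested entries, and the positive values were those of mt-Nd3 (0.65, adjusted p = 0.673) and mt-Nd6 (0.40, adjusted p = 0.707). After upper-quartile scaling 3 values were positive and no member passed. Without overlap, 6 members were lower in KA_L, against 4.54% of all tested entries. Of the 8 marker lists, 3 did not overlap and were lower in KA_L. One was that of neurons, in which no marker reached 1 TPM in all 3 libraries of either group. The astrocyte markers had 138 to 160 TPM in KA_L and 187 to 331 TPM in CTRL_L, the oligodendrocyte markers 14.98 to 70.8 TPM in KA_L and 103 to 185 TPM in CTRL_L, and the neuron markers 0.16 to 0.97 TPM in KA_L and 2.53 to 66.5 TPM in CTRL_L. Their part in the result was not tested. CTRL_L replicate 1 had both the lowest mitochondrial messenger RNA sum of its group, 4.66% of the table, and choroid plexus markers at 139 TPM. Without it, 2 members passed and mt-Co1 fell by 1.54 (adjusted p = 0.0208), while without KA_L replicate 3 or CTRL_L replicate 3 no member did (adjusted p of mt-Co1 0.0591 and 0.0672).

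In KA_H against CTRL_L no member passed, where 0.377% of all tested entries did. The smallest p was that of mt-Co1, with a log2 fold change of 0.76 (SE 0.27, adjusted p = 0.328, limma), and 3 members had an unadjusted p under 0.05, where 10.5% of all tested entries did. Of the 14 values 12 were positive, but after quantile normalization 4 were and after upper-quartile scaling all 14 were, so no common direction can be given. Without overlap, 3 members were higher in KA_H, mt-Co1, mt-Co3 and mt-Nd5, against 7.74% of all tested entries. Upper-quartile scaling, which moved the median of all entries to 0.47, gave 2 calls. Of the 8 marker lists, 5 did not overlap. Those of red blood cells and neutrophils were higher in KA_H. Those of astrocytes, neurons and oligodendrocytes were lower in KA_H, with no neuron marker at 1 TPM in all 3 libraries of either group. Their part was not tested. The untreated libraries serve as the reference in both KA comparisons, and the KA_L, KA_H, APOE_L and APOE_H groups each enter 2 or more of the others, so these comparisons are not independent of each other.

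Ratios between members within a library do not depend on the rest of the table. The ratio of mt-Co1 with its copies to mt-Atp6 was 0.655, 0.680 and 0.696 in APOE_H libraries and 0.263, 0.245 and 0.243 in APOE_L libraries. It was 0.488, 0.558 and 0.660 in KA_H libraries, 0.277, 0.214 and 0.262 in KA_L libraries, and 0.563, 0.321 and 0.360 in CTRL_L libraries. The H and L libraries did not overlap in either condition, and the control libraries lay above all KA_L and APOE_L libraries. The ratio of mt-Nd3 with its copy to mt-Cytb had the opposite order, at 0.294 ± 0.0275 in APOE_H and 0.707 ± 0.147 in APOE_L, 0.232 ± 0.0360 in KA_H and 0.680 ± 0.169 in KA_L, and 0.364 ± 0.0593 in CTRL_L (SD, n = 3 each). mt-Nd6 and mt-Nd5 lie next to each other on opposite strands. Their ratio was 0.748 ± 0.0969 in APOE_H and 1.64 ± 0.270 in APOE_L, 0.887 ± 0.0606 in KA_H and 2.21 ± 0.477 in KA_L, and 0.977 ± 0.156 in CTRL_L (SD, n = 3 each). mt-Nd5 itself rose in H averaged over both conditions, and set against mt-Cytb, mt-Nd6 did not separate the letters in the APOE condition. The mt-Nd6 to mt-Cytb ratio was 0.115 to 0.184 in APOE_H and 0.137 to 0.187 in APOE_L, which overlap, and 0.109 to 0.122 in KA_H and 0.165 to 0.439 in KA_L, which do not. It was 0.0867 to 0.164 in CTRL_L. The mt-Rnr2 to mt-Rnr1 ratio set APOE_H apart, at 0.968 ± 0.110, from APOE_L at 1.56 ± 0.290, KA_H at 1.60 ± 0.0810, KA_L at 1.60 ± 0.201 and CTRL_L at 1.19 ± 0.112 (SD, n = 3 each). No test was made of these ratios.

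**Figure D5:**
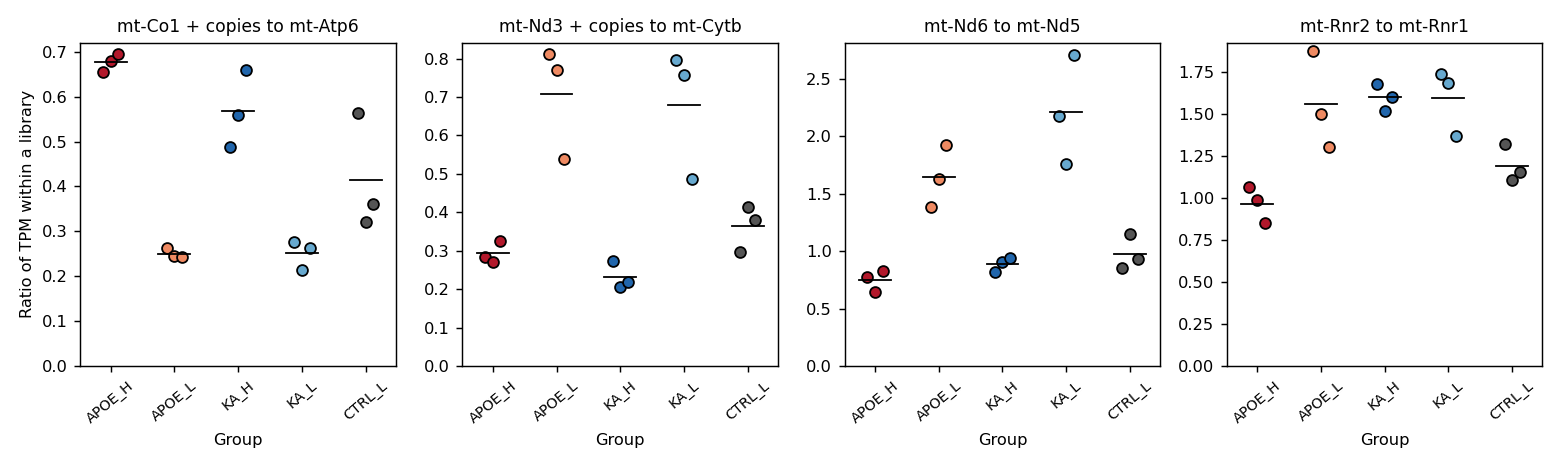
Ratios of TPM between members within each library, with points for libraries and lines for group means. In the first 3 panels APOE_H and KA_H lie apart from APOE_L and KA_L with no overlap between H and L of a condition; in the fourth APOE_H is the lowest group.

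Fold changes were also set against transcript length. Across the 12 tested protein-coding genes, 204 to 1824 bases long, the log2 fold change was higher for longer genes in KA_H against KA_L (Spearman rho 0.755) and in APOE_H against APOE_L (rho 0.727), and lower for longer genes in KA_L against CTRL_L (rho -0.769). With the copies added and mt-Nd4l included through its copy, the 13 values gave 0.379, 0.412 and -0.242. The other comparisons varied. Without copies, rho was 0.762 for H against L averaged, 0.594 for KA_H against CTRL_L and 0.42 for APOE_H against KA_H. It was 0.14 for the interaction and -0.0909 for APOE_L against KA_L. With copies these were, in the same order, 0.418, 0.401, -0.0659, 0.0769 and -0.374. The genes share libraries and precursor RNAs and are not independent replicates, so no p is given.

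Between APOE_H and APOE_L, the nuclear genes for the same complexes had a median of the opposite sign from the mitochondrial ones. Of 75 tested nuclear genes for respiratory chain and ATP synthase subunits, 19 rose in APOE_H against APOE_L and none fell, where 4.7% of all tested entries rose. The median log2 fold change was -1.03 for the 14 mitochondrial members, ribosomal RNAs included, and -1.12 for the 12 protein-coding ones. It was 2.19 for these nuclear genes and 0.54 for all tested entries. Atp5h, a subunit of the ATP synthase stalk, had 621, 783 and 1021 TPM in APOE_H libraries, against 50.2, 79.6 and 157 TPM in APOE_L libraries (log2 fold change 3.19, SE 0.49, adjusted p = 0.00203). Atp5b, the catalytic beta subunit, had 1134, 1046 and 2006 TPM in APOE_H libraries, against 152, 94.3 and 85.1 TPM in APOE_L libraries (3.63, SE 0.66, adjusted p = 0.00610). Next by adjusted p was Atp5e, which rose by 2.82 (SE 0.53, adjusted p = 0.00629). mt-Atp6, a subunit of the same enzyme, fell by 1.48 between these groups.

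In KA_H against KA_L, nuclear and mitochondrial subunit genes both had positive medians. Of the 75 nuclear genes 15 rose and none fell, where 1.23% of all tested entries rose. The median was 1.01 for the mitochondrial members, ribosomal RNAs included, and 0.98 for the 12 protein-coding ones. It was 2.22 for the nuclear genes and 0.11 for all tested entries. Ndufa3, an accessory subunit of complex I, had 1454, 2663 and 2259.97 TPM in KA_H libraries, against 415, 410.2 and 489 TPM in KA_L libraries (log2 fold change 2.24, SE 0.34, adjusted p = 0.00538). Ndufa1, also of complex I, rose by 3.73 (SE 0.56, adjusted p = 0.00533), and Cox6a1, of complex IV, by 2.65 (SE 0.42, adjusted p = 0.00590). Averaged over both conditions, 51 of the 75 rose in H, where 7.72% of all tested entries did. None passed in APOE_H against KA_H (median -0.12), APOE_L against KA_L (0.14), KA_L against CTRL_L (-1.14), KA_H against CTRL_L (1.07) or the interaction, where the median was -1.95 for the mitochondrial members, against -0.33 for the nuclear genes.

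Genes that act on mitochondrial DNA and RNA mostly did not pass. Of 17 tested genes for mitochondrial DNA maintenance and transcription, 2 rose in APOE_H against APOE_L, where 4.7% of all tested entries rose, and their median was 0.85 against 0.54 over all tested entries. Tk2, a mitochondrial thymidine kinase, had 47.0, 59.9 and 19.8 TPM in APOE_H libraries, against 0, 1.39 and 2.45 TPM in APOE_L libraries (log2 fold change 4.28, SE 1.11, adjusted p = 0.0311). Mterf4, which takes part in assembly of the mitochondrial ribosome, had 31.7, 5.62 and 8.84 TPM in APOE_H libraries, against 0, 0.08 and 0 TPM in APOE_L libraries (3.65, SE 0.87, adjusted p = 0.0207). Averaged over both conditions 3 of the 17 rose in H, where 7.72% of all tested entries did, the other being Tefm, a transcription elongation factor of mitochondria (3.73, SE 0.90, adjusted p = 0.0148). None of the 24 genes for mitochondrial RNA processing and decay and none of the 13 tested mitochondrial transfer RNA synthetases passed in any of the 8 comparisons.

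Proteins of the mitochondrial ribosome are encoded in the nucleus. Of 49 tested genes for its large subunit, 4 rose in APOE_H against APOE_L, where 4.7% of all tested entries did, and 1 in KA_H against KA_L, where 1.23% did, so that both counts were near the share over all entries. Averaged over both conditions 10 rose in H, where 7.72% of all tested entries did, with a median of 2.14 against 0.32 over all tested entries. Mrpl41 was the one in KA_H against KA_L, at 48.2, 30.6 and 73.1 TPM in KA_H libraries and listed at 0 in all 3 KA_L libraries (adjusted p = 0.0336). Of 30 genes for the small subunit, 2 rose in APOE_H against APOE_L and 4 in H averaged over both conditions, set against the same 4.7% and 7.72%. Mrps21 was 1 of these 4, with a log2 fold change of 1.52 (SE 0.39, adjusted p = 0.0193). Of 39 assembly factors for the respiratory chain, Sco2 alone passed in APOE_H against APOE_L (3.51, SE 0.87, adjusted p = 0.0259), a smaller share than the 4.7% of all tested entries. It had 16.9, 17.6 and 3.40 TPM in APOE_H libraries and was listed at 0 in all 3 APOE_L libraries. Averaged over both conditions 3 of the 39 rose in H, Sco2, Coa3 and Surf1, the last 2 also factors for complex IV, which is about the 7.72% found over all tested entries. None of the ribosome or assembly genes fell in any comparison. In both conditions more entries reached 1 TPM in the H than in the L libraries, as given above. The part of this in genes at or near 0 in L was not tested. Such genes include Mrpl41 in KA_L, and Sco2, Tk2 and Mterf4 in APOE_L.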

How the data were processed

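RNA from brain was extracted with Trizol and made into libraries with an Illumina TruSeq kit, per the labels' protocols, which do not say whether polyadenylated RNA was selected. The authors deposited 1 table of TPM values, normalised by them for transcript length and library size. The submitters' processing notes name STAR as the aligner and GRCh38 as the build, although the table's identifiers are mouse. The quantification tool, annotation and strand setting are not given in the sources used here. Symbols came from GENCODE M21, which matched 52083 of 55416 Ensembl identifiers; 10548 entries were assembled loci without a symbol. No coordinates are given because the builds differ.

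The deposited TPM values of all 15 libraries were tested as log2(TPM + 1) in 1 limma fit (version 3.58.1, R 4.3.3; lmFit, contrasts.fit, eBayes with trend) with a mean per group. A filter of at least 1 TPM in 3 or more libraries left 17505 entries, with 10 residual degrees of freedom, and Benjamini-Hochberg adjustment was made in each of 8 comparisons. No depth can be recovered from TPM, so no count model or counting interval was used. The procedure was tried on simulated data in which the noise of each entry was independent. Shifts shared by the genes of a library were therefore not covered. No pair of libraries held identical values. Nuclear copies were found with BLAST+ 2.17.0 (word size 20), and adding them to their member was an alternative chosen after seeing the data. Other alternatives were a pseudocount of 0.1, no filter, a filter at 5 TPM, upper-quartile scaling, quantile normalization, rescaling to Ensembl entries outside the members, the compared groups alone, a replicate block and each library left out.

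Members, gene lists and tests were chosen with earlier results of these data known. Member values are named for every call, or for the smallest p where a comparison had none; from each nuclear list at most 3 called genes with the smallest adjusted p are named per comparison.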

Additional observations from a re-analysis of the deposited data

Results flagged for a closer look

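The H to L difference of mt-Atp6 was not the same in the 2 conditions, by a test of the difference itself. On the log2 scale, APOE_H minus APOE_L less KA_H minus KA_L was -2.30 (limma, adjusted p = 0.0425). mt-Atp6 fell by 1.48 in APOE_H against APOE_L, and its value in KA_H against KA_L was 0.82 (adjusted p = 0.151), and -0.08 after quantile normalization. All 3 APOE_H libraries lay below all 3 APOE_L libraries, and all 3 KA_H libraries lay above all 3 KA_L libraries. The call was lost without a filter on low values (adjusted p = 0.531), after quantile normalization (-1.15, adjusted p = 0.386), with the replicate block (adjusted p = 0.0562) and in 10 of the 12 fits that left out 1 library.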

How the results depend on the processing

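The counts of members called were, in the order KA_L against CTRL_L, KA_H against CTRL_L, KA_H against KA_L, APOE_L against KA_L, APOE_H against KA_H, APOE_H against APOE_L, H against L averaged, and interaction, 1, 0, 4, 0, 3, 7, 3 and 1. Without a filter on low values they were 0, 0, 1, 0, 0, 0, 2 and 0, with far more entries tested. After upper-quartile scaling they were 0, 2, 11, 0, 7, 9, 3 and 9, and after quantile normalization, which moved the median of all entries in KA_H against KA_L to -0.11 and in APOE_H against KA_H to -0.02, 1, 0, 2, 0, 0, 6, 3 and 0. Rescaling to Ensembl entries outside the members gave 1, 0, 3, 0, 4, 9, 2 and 5. A filter at 5 TPM gave 1, 0, 5, 0, 2, 7, 3 and 5, and a pseudocount of 0.1 gave 1, 0, 4, 0, 3, 7, 3 and 4. Fits of the compared groups alone, with fewer samples, gave 0, 0, 0, 0, 0, 2, 3 and 6. With the nuclear copies added, an alternative chosen after seeing the data, they were 1, 0, 6, 0, 5, 7, 3 and 4. Leaving out each library in turn gave 0 to 2, 0 to 0, 1 to 3, 0 to 0, 0 to 5, 2 to 6, 2 to 3 and 0 to 5. The cause of these shifts was not tested. None of the 19 member values that passed in a comparison changed sign under any setting, while 21 of the 93 that did not pass changed sign under at least 1. In APOE_H against APOE_L these include mt-Co1 (-0.04 with copies added) and mt-Nd5 (-0.01 after upper-quartile scaling and -0.04 after rescaling).

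Same-numbered libraries shared little: 0 of 30 same-numbered pairs had correlated deviations over 0.1 (-0.0263 to 0.0365). However, 10 of 15 libraries correlated best with their own number, more than an even spread over the numbers would give. Whether the replicate numbers pair the samples was therefore not settled. With the number as a replicate block the counts were 1, 0, 4, 0, 3, 6, 3 and 0.

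TPM keeps no depth, so which values rest on few reads is unknown. Where identical nuclear copies exist, a member's own level and fold change depend on how reads were divided. H and L are undefined and no untreated H group was included, so letter and treatment cannot be told apart in KA_H against CTRL_L.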

Other observations

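Malat1, a nuclear long noncoding RNA, had 10722, 9439 and 6665 TPM in APOE_H libraries and 7565, 6942 and 5856 TPM in APOE_L libraries. It had 8374, 6141 and 3687 TPM in KA_H libraries, 9016, 9914 and 16540.2 TPM in KA_L libraries, and 15777, 12823 and 8659 TPM in CTRL_L libraries. Neat1, another nuclear long noncoding RNA, had 39.9, 15.4 and 27.0 TPM in APOE_H libraries and 101, 115 and 25.7 TPM in APOE_L libraries. It had 14.5, 27.2 and 19.4 TPM in KA_H libraries and 100.2, 53.6 and 147 TPM in KA_L libraries, so that KA_H lay below KA_L without overlap. P2ry12, a microglial purine receptor gene, was highest in CTRL_L replicate 1, at 9373 TPM, the control library with the lowest mitochondrial messenger RNA sum; the other 14 libraries had 878 to 3397 TPM.

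The share of individual genes in the mitochondrial messenger RNA, copies added, varied less between groups for some genes than for others. mt-Co3 with its copy took 20.8% to 23.8% of that sum in every library. mt-Co1 took 12.04% ± 0.310 in APOE_H libraries and 5.90% ± 0.256 in APOE_L libraries. It took 10.6% ± 1.19 in KA_H libraries and 5.37% ± 0.694 in KA_L libraries (SD, n = 3 each). Gm10222, which stands for mt-Nd4l, took 2.24% ± 0.0785 in APOE_H libraries and 1.10% ± 0.184 in APOE_L libraries. It took 1.61% ± 0.397 in KA_H libraries and 0.879% ± 0.0649 in KA_L libraries (SD, n = 3 each).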
